A study of Homo sapiens with 29 samples.

Results

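The cytosolic ribosomal proteins are the structural proteins of the ribosome that translates messenger RNA in the cytosol, and their messenger RNAs were followed here in 2 human lymphoma lines given an inhibitor of the kinase SYK. Members were taken by symbol: RPL or RPS followed by digits with an optional A, L or X, together with RPLP0, RPLP1, RPLP2 and RPSA, leaving out pseudogenes, RPS6 kinases and genes of the Y chromosome. Of 12165 genes with a probe set of their own on the array, 66 were members: 23 of the small (40S) subunit, 39 of the large (60S) subunit and 4 paralogues whose symbol ends in L (RPL3L, RPL10L, RPL39L and RPS27L). RefSeq lists 81 genes that meet the rule, and the other 15 were not analysed here.

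DHL4 and DHL6 are established human lines grown from diffuse large B-cell lymphoma. R406 is a small molecule that inhibits SYK, the tyrosine kinase that relays signals of the B-cell receptor. Both lines, in the same serum-containing medium, were given R406 (1 µM) and collected 2, 6, 24 or 48 h later, and their controls were given DMSO only. Each R406 time had 3 arrays per line, DMSO had 3 arrays in DHL6 and 2 in DHL4, and all 29 were Affymetrix HT_HG-U133A arrays, which read the 3′ part of each messenger RNA. Each line stands for itself as a model, and the DMSO arrays carry no time in their labels although the design text gives times for DMSO as well, so those of a line may come from different times. All 4 R406 times of a line are set against the same DMSO arrays, so time in culture and time under R406 cannot be told apart. Separate cultures are not stated for replicate arrays, and the spread that enters each p-value is that between arrays, which may be technical.

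Ribosomal protein genes are transcribed at a high rate in growing cells and make up a large part of their messenger RNA. Their transcripts nearly all begin with a C and an unbroken run of pyrimidines, the terminal oligopyrimidine motif, through which the kinase mTOR and the RNA-binding protein LARP1 control their translation and stability. Assembly of the proteins onto ribosomal RNA takes place in the nucleolus with a separate set of assembly factors, many of them targets of MYC. A change in translation of these transcripts alone would not be seen on an expression array.

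The sequence around the start site is shown for 8 members because it carries the feature that defines the family's transcripts. RefSeq's promoter table (GRCh38.p14, 250 bases before to 50 after each start) held 54 of the 66 members. In each line 40 bases before the annotated start and the first 15 bases from it are given, 5′ to 3′ on the gene's own strand. Capitals mark the first C within 5 bases of the start that is followed by at least 5 pyrimidines. The C and T bases that follow it without a break are capitals too, and a line without such a run has none.
RPS9: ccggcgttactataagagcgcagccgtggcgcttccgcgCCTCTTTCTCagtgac
RPL36: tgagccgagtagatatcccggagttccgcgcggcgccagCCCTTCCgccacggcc
RPLP2: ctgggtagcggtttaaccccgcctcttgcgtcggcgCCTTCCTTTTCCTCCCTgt
RPL35A: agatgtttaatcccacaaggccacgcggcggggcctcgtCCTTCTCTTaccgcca
RPS6: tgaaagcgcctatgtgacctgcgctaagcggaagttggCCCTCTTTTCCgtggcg
RPS27: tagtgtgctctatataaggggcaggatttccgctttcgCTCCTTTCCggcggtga
RPL39: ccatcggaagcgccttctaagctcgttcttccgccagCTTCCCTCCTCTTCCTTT
RPS27L: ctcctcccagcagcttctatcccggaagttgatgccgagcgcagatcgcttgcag
The windows lie at chr19:54200818-54200872 (RPS9, plus strand), chr19:5690255-5690309 (RPL36, plus), chr11:809927-809981 (RPLP2, plus) and chr3:197950150-197950204 (RPL35A, plus). Those of the other four lie at chr9:19380222-19380276 (RPS6, minus), chr1:153990722-153990776 (RPS27, plus), chrX:119791616-119791670 (RPL39, minus) and chr15:63157463-63157517 (RPS27L, minus). Each spans the end of the promoter and the first bases of exon 1.

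A C within 5 bases of the start followed by at least 5 pyrimidines was present in 44 of the 54 members with an entry (81.5%), against 13.7% of all 27305 genes in the table. All 44 belonged to the 52 members of the 40S and 60S subunits, and neither of the 2 paralogues with an entry, RPL10L and RPS27L, had it. Mitochondrial ribosomal protein genes had it in 5.8% of 69 entries and ribosome assembly factors in 18.8% of 32. The letters CCGGAA, searched on both strands over the 300 bases, were found in 57.4% of the members, in 62.3% of mitochondrial ribosomal protein genes and in 20.1% of all genes. The TATAAA letters were found in 7.41% of the members and in 14% of all genes. Thus RPS27 and RPS27L, which encode near-identical proteins, differed in this window: RPS27 begins with the pyrimidine run and no such run was found for RPS27L.

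On these arrays the members lay near the top of the scale. Values are log2 intensities after the submitters' RMA processing and ran from 1.99 to 13.49 over all probe sets. The chosen probe set (the one of highest mean) averaged at least 10 in 59 members, and the median over members was 12.43 to 12.61 on every array. The standard deviation between replicate arrays was small in these 59 bright members, with a median of 0.04. The other 7 members were read by dimmer probe sets, with a median SD of 0.185: the 4 paralogues and RPL27A, RPL37A and RPS28, whose chosen probe sets averaged 7.4, 5.09 and 5.22. Many chosen probe sets may also bind related transcripts, since 26 carry the suffix _x_at and 27 the suffix _s_at, and the array cannot tell processed pseudogene transcripts from their parents.

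Replicate arrays of a group correlated at 0.978 to 0.996 over all genes, each read by its chosen probe set (28 pairs). A mean above 5 was found for 5 of 6 B-cell markers (MS4A1, CD79A, CD79B, BLK and CD37), 0 of 7 monocyte and macrophage markers, 0 of 8 fibroblast and endothelium markers and 1 of 7 T-cell markers (LCK). The summed log2 levels of those 4 lists ranged over the arrays from 46.5 to 50.7, 18.9 to 22.5, 21.9 to 31 and 22.1 to 24.9. In RNA from whole cultures, more cells of a kind and more RNA per cell cannot be told apart. The difference between 3′ and 5′ probe sets of ACTB, a measure of how far back the labelled RNA reaches, was 1.31 to 1.57 in DHL6 DMSO, 1.60 to 2.02 at 2 h, 1.55 to 1.71 at 6 h, 1.77 to 1.92 at 24 h and 2.16 to 2.43 at 48 h, and lay between 1.25 and 1.67 on all DHL4 arrays. In 3 arrays (DHL4 2 h replicate 3, DHL6 6 h replicate 3 and DHL6 48 h replicate 1) the 75th percentile of all probe sets was below 4.9, against at least 4.96 in the rest.

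R406 was followed by a small rise of many ribosomal protein messenger RNAs, clearest in DHL4 at 24 h. There 29 of 66 members rose and 1 fell at an adjusted p under 0.05 (limma, Benjamini-Hochberg over all 12165 genes), against 13% of all genes that rose and 16.5% that fell. The median member difference from DMSO was 0.19 on the log2 scale, with all genes at 0.03, and 59 of 66 members were positive. Of the subunits, 19 of 39 members of the 60S (median 0.21) and 9 of 23 of the 40S (median 0.15) rose. RPS9, a 40S protein beside the channel through which messenger RNA enters, and RPL36 and RPLP2 of the 60S subunit led among the core members. The 3′ to 5′ difference of GAPDH was 0.11 to 0.21 on these 24 h arrays against 0.09 and 0.1 in DMSO, and −0.11 to 0.08 on the DHL4 arrays of 48 h. In DHL6 it was −0.03 to 0 in DMSO, 0.11 to 0.22 at 24 h and 0.13 to 0.33 at 48 h, and its part in the members' rise was not tested.

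The count moved with how arrays were put on one scale and with the variance model, while the median lay between 0.11 and 0.45 across the scalings. Centring each array on its median gene left 12 members higher in DHL4 at 24 h (median 0.11, all genes −0.05), quantile normalization gave 23, and centring on bright genes gave 58 with all genes shifted to 0.29. Under these scalings, in that order, 10.7%, 14.4% and 32.9% of all genes were higher. For the settings that follow, that share is not given here. A fit with an intensity-dependent, robust variance gave 43, and a fit on the 2 groups alone gave 7. Probe sets without the _x_ and _s_ suffixes measured 25 members and called 9. With only 2 DMSO arrays in DHL4, leaving out DMSO replicate 1 gave 13 and leaving out DMSO replicate 2 gave 15.

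**Figure D1:**
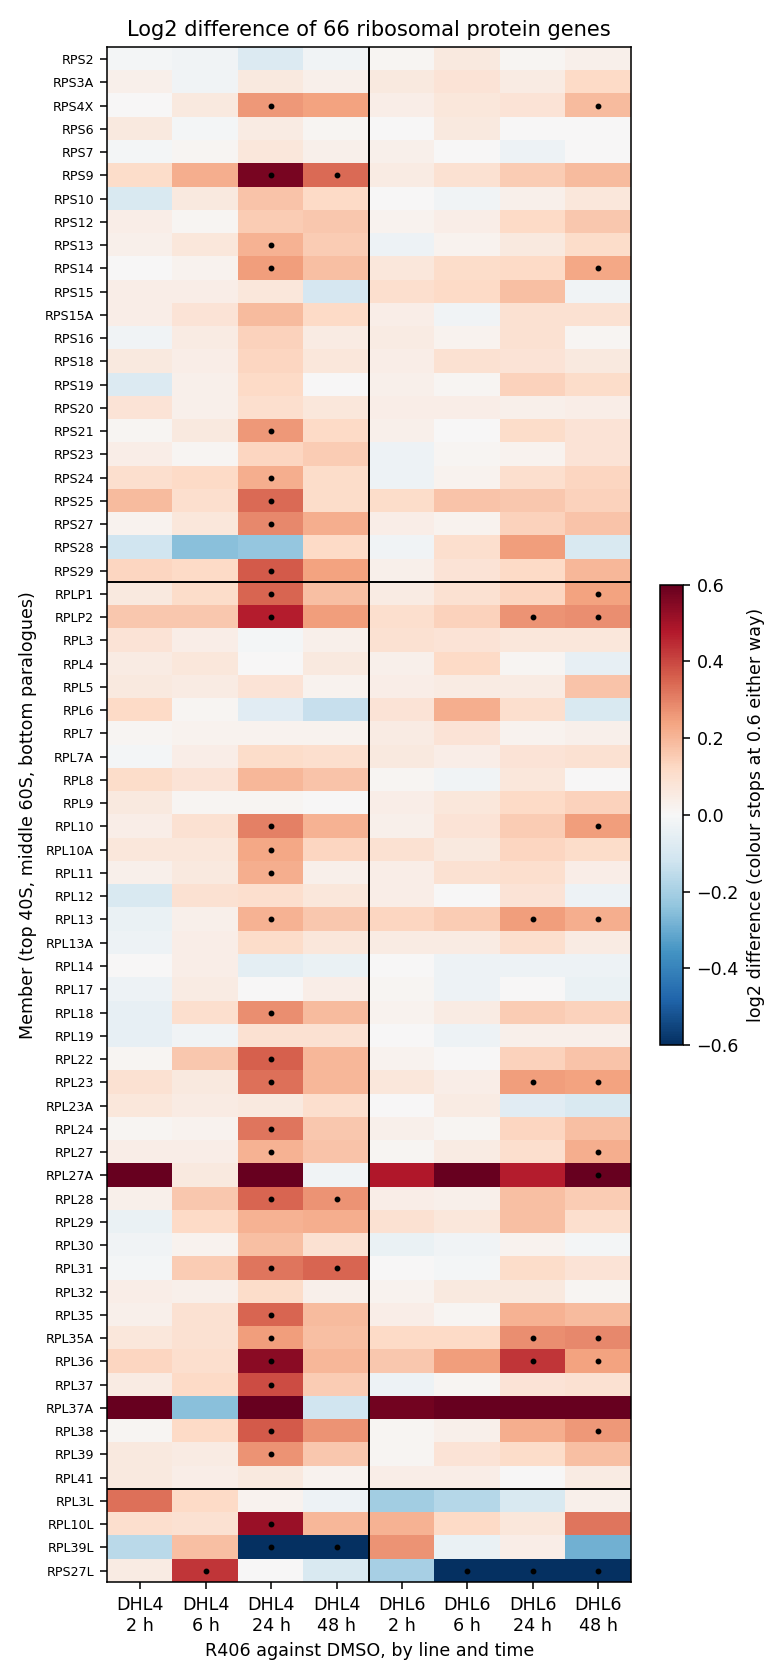
Log2 difference between R406 and DMSO for each of the 66 members (rows; 40S, 60S and paralogues from top to bottom) at each time in both lines (columns), with colour stopping at 0.6 either way and dots on members past an adjusted p of 0.05. Red is densest in the DHL4 24 h column, where 29 members rose, and the darkest blue cells are RPL39L in DHL4 and RPS27L in DHL6.

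Few members were called at the early times. At 2 h none of 66 was called in either line (limma), against 2.67% of all genes higher and 6.81% lower in DHL4 and 2.14% and 3.16% in DHL6; at an unadjusted p under 0.05 there were 2 members in DHL4 and 1 in DHL6, and the robust variance fit called 0 and 1. At 6 h the only call in either line was RPS27L, higher in DHL4 and lower in DHL6, against backgrounds of 6.42% higher and 6.36% lower in DHL4 and 3.14% higher and 5.12% lower in DHL6. Member medians were 0.04 in both lines at 2 h, and 0.06 (DHL4) and 0.05 (DHL6) at 6 h, beside 0.01 or 0.02 for all genes.

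At 24 h in DHL6, 5 members rose (RPL36, RPL35A, RPLP2, RPL13 and RPL23, all of the 60S subunit) and RPS27L fell, against 6.2% of all genes higher and 8.17% lower. The share of members called higher there was 7.58%, close to that of all genes. The median was 0.1 with 61 of 66 members positive. The count was 1 after centring on the median gene, where 5.02% of all genes rose, and 26 with the robust variance fit. It was 3 without DMSO replicate 1, DMSO replicate 2, 24 h replicate 1 or 24 h replicate 3, and 1 without DMSO replicate 3.

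At 48 h in DHL6, 12 members rose and RPS27L fell, against 8.39% of all genes higher and 14.9% lower. Of the 12, RPS14 and RPS4X belong to the 40S and the other 10 to the 60S subunit: RPL27A, RPL35A, RPLP2, RPL38, RPL10, RPL23, RPL36, RPLP1, RPL13 and RPL27. The member median was 0.09 with all genes at 0.04. Centring arrays on the median gene, which shifts all genes alike, put the members at −0.01 and all genes at −0.06, and 1 member rose and 2 fell there. Of all genes, 4.81% rose in that setting. Without DMSO replicate 2, DMSO replicate 3 or 48 h replicate 1, 6, 3 and 4 members rose, and 8 rose without the 3 arrays of narrow spread. The ACTB 3′ to 5′ difference was highest on these arrays (2.16 to 2.43), and its part in the result was not tested.

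At 48 h in DHL4, 3 members rose (RPL31, RPS9 and RPL28) and RPL39L fell, against 3.53% of all genes higher and 3.8% lower. The share of members called higher there was 4.55%, close to that of all genes, and 1.52% were lower. The median was 0.12. Leaving out DMSO replicate 1 or DMSO replicate 2 left 0 and 1 of them, and leaving out the 3 arrays of narrow spread, none of which is in this comparison, gave 5.

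A plainer count asks how many members had every R406 array above every DMSO array of the line. In DHL4 these were 18, 27, 49 and 39 members at 2, 6, 24 and 48 h, against 16.7%, 21.6%, 25.6% and 18.4% of all genes. In DHL6 they were 17, 23, 43 and 38, against 11.8%, 11.9%, 17.3% and 17% of all genes. As shares of the members, 74.2% in DHL4 and 65.2% in DHL6 stood clear of DMSO at 24 h. The lists of the lines at 24 h had 39 members in common, which is 79.6% of the DHL4 list and 90.7% of the DHL6 list. At 2, 6 and 48 h they had 6, 8 and 30 in common. Lists that hold most of the members share many by their size alone. The share of all genes clear of DMSO in both lines is not given here. The lines have separate DMSO arrays.

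RPS9 gave the largest called rise among the core members of DHL4. Its log2 values there were 11.34 and 11.31 in DMSO, 11.43, 11.45 and 11.42 at 2 h, 11.54, 11.56 and 11.55 at 6 h, 11.9, 11.92 and 11.86 at 24 h, and 11.71, 11.7 and 11.6 at 48 h. In DHL6 they were 11.4, 11.46 and 11.36 in DMSO and 11.63, 11.56 and 11.49 at 24 h. Every DHL4 array under R406 lay above both DMSO arrays, and the 24 h arrays stood above all others. The difference from DMSO in DHL4 was 0.57 ± 0.08 (SE; adjusted p = 5.29e-06) at 24 h and 0.34 ± 0.08 (adjusted p = 0.00945) at 48 h, the latter at adjusted p = 0.0668 without DMSO replicate 1 and 0.108 without DMSO replicate 2. In DHL6 at 24 h it was 0.15 ± 0.07 (adjusted p = 0.213), and the difference between the lines' responses was −0.41 ± 0.11 (adjusted p = 0.0101). A further probe set for RPS9 gave 0.33 in DHL4 at 24 h, also higher.

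RPL36, a 60S protein, rose in both lines at 24 h. In DHL4 its values were 11.14 and 11.02 in DMSO, 11.62, 11.61 and 11.63 at 24 h, and 11.3, 11.28 and 11.26 at 48 h. In DHL6 they were 10.41, 10.34 and 10.19 in DMSO, 10.81, 10.6 and 10.82 at 24 h, and 10.56, 10.52 and 10.58 at 48 h. At 24 h and 48 h every R406 array of a line lay above its DMSO arrays. The 24 h differences were 0.54 ± 0.09 (adjusted p = 4.74e-05) in DHL4 and 0.43 ± 0.08 (adjusted p = 0.000494) in DHL6, and they did not differ detectably between the lines (−0.10 ± 0.12, adjusted p = 0.732). From 24 to 48 h RPL36 fell by 0.34 in DHL4 (adjusted p = 0.00265).

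RPLP2, an acidic protein of the ribosomal stalk that recruits elongation factors, and its partner RPLP1 belonged to the same group. RPLP2 in DHL4 was at 11.96 and 12.08 in DMSO and at 12.5, 12.49 and 12.49 at 24 h. In DHL6 it was at 12.32, 12.33 and 12.33 in DMSO, 12.56, 12.54 and 12.7 at 24 h and 12.56, 12.61 and 12.65 at 48 h. The 24 h arrays of each line were all above DMSO. The differences were 0.47 ± 0.09 (adjusted p = 0.000208) in DHL4 at 24 h and, in DHL6, 0.27 ± 0.08 (0.0242) at 24 h and 0.28 ± 0.08 (0.0144) at 48 h. The calls in DHL6 did not pass after centring on the median gene (adjusted p = 0.0853 and 0.13), that at 24 h also without any 1 of the DMSO replicates or 24 h replicate 3 (0.0644 to 0.135), and that at 48 h without 48 h replicate 3 (0.0511). Averaged with a dim further probe set (mean 5.35), RPLP2 in DHL4 at 24 h stood at 0.07 (0.915). RPLP1 rose by 0.35 in DHL4 at 24 h and by 0.24 in DHL6 at 48 h, the latter at adjusted p = 0.192 after centring on the median gene, 0.0593 without DMSO replicate 3 and 0.0533 without 48 h replicate 1.

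RPL35A, a 60S protein whose gene is among those mutated in Diamond-Blackfan anaemia, rose in both lines at 24 h and again in DHL6 at 48 h. It stood at 11.96 and 12.16 in DHL4 DMSO and at 12.3, 12.29 and 12.35 at 24 h. In DHL6 it stood at 11.46, 11.45 and 11.37 in DMSO, 11.71, 11.75 and 11.66 at 24 h and 11.7, 11.69 and 11.76 at 48 h. No R406 array at these times overlapped DMSO. The differences were 0.25, 0.28 and 0.29 with adjusted p of 0.0249, 0.0121 and 0.00656; those of DHL6 had adjusted p of 0.0616 and 0.0932 after centring on the median gene, and the 24 h call had 0.064 without DMSO replicate 3 and 0.0565 without 24 h replicate 2. RPL13 (0.21 and 0.25) and RPL23 (0.33 and 0.25) were the remaining members called in both lines at 24 h, in the order DHL4 and DHL6. A dim further set of RPL23, averaging 5.72, was called lower in DHL4 at 2 h (−0.77) and 24 h (−1.5) and in DHL6 at 48 h (−0.97). In DHL6 at 24 h that set gave −0.06, not called. Another dim RPL23 set, averaging 5.44, gave −0.39 and −0.45 at 24 h in DHL4 and DHL6, neither called.

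**Figure D2:**
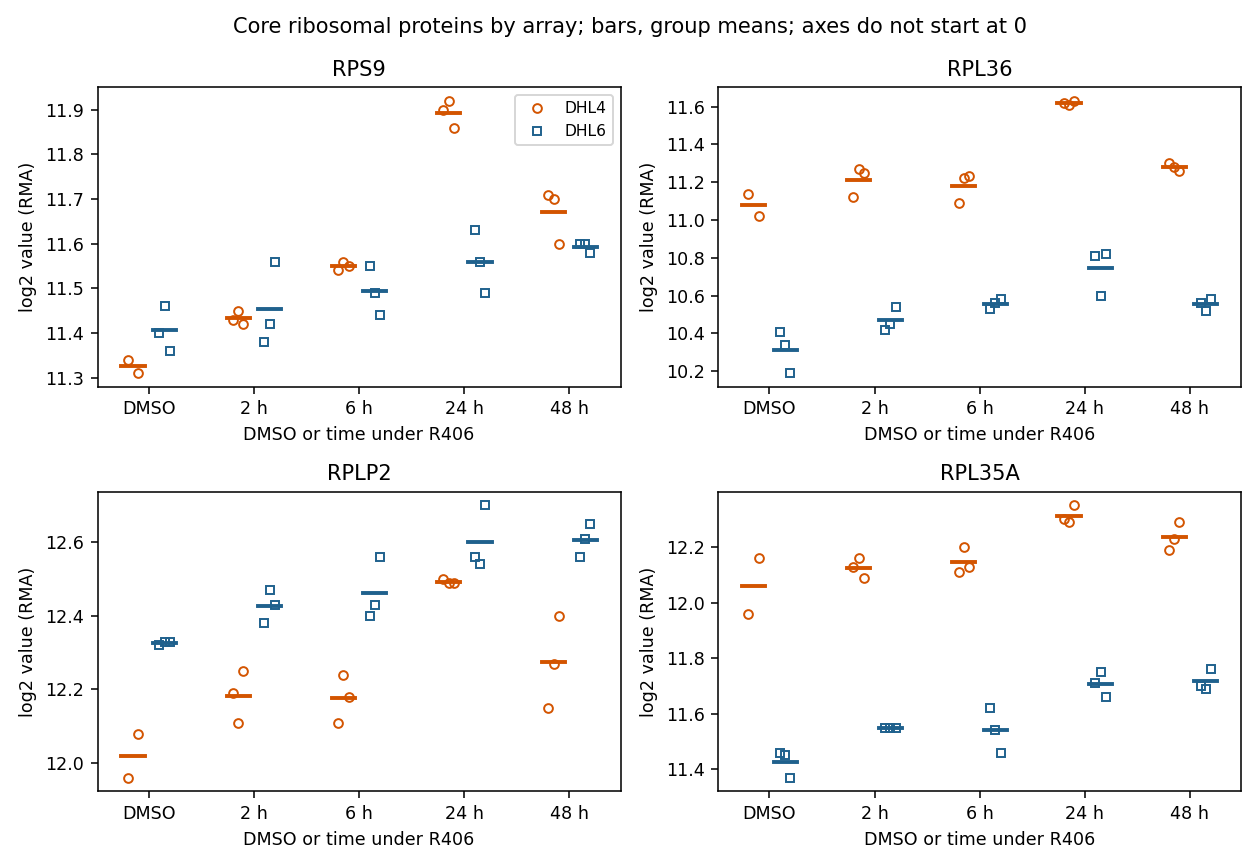
Log2 values of RPS9, RPL36, RPLP2 and RPL35A on every array, by DMSO or hours under R406, with circles for DHL4, squares for DHL6 and bars for group means. At 24 h all DHL4 arrays lie above both DMSO arrays in the 4 panels, and RPL36 and RPL35A sit lower in DHL6 than in DHL4 throughout.

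Members with roles outside the ribosome were read for the same comparisons. RPL11 and RPL5, which with the smallest ribosomal RNA bind the p53 regulator MDM2, differed: RPL11 rose in DHL4 at 24 h (0.22 ± 0.08, adjusted p = 0.0333, but 0.26 after centring on the median gene, and 0.0626 to 0.178 without DMSO replicate 1 or 2 or 24 h replicate 1 or 2), and RPL5 was at 0.08 ± 0.10 (adjusted p = 0.668). RPL11 read 11.82 and 11.78 in DMSO and 12.04, 12.02 and 12 at 24 h, and was back to 11.81, 11.81 and 11.86 at 48 h. RPL22, which binds viral and cellular RNA outside the ribosome, rose by 0.36 ± 0.09 in DHL4 at 24 h (adjusted p = 0.00237; 0.0583 without DMSO replicate 1). RPS14 and RPL10, whose genes are altered in blood cancers, rose by 0.25 and 0.30 there and by 0.23 and 0.25 in DHL6 at 48 h. None of these 4 calls passed after centring on the median gene (adjusted p of 0.134, 0.0679, 0.257 and 0.192 in that order), and each was lost without at least 1 of its arrays, among them DHL4 DMSO replicate 1 (0.0725 and 0.172) and DHL6 DMSO replicate 3 (0.053 and 0.0647). RPS19, another gene of Diamond-Blackfan anaemia, was not called at any time, with 0.12 ± 0.08 in DHL4 and 0.14 ± 0.07 in DHL6 at 24 h.

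RPS6, the substrate of the S6 kinases downstream of mTOR, was not called at any time. Its values were 12.97 and 12.99 in DHL4 DMSO and 13.06, 13.02 and 13.01 at 24 h, and 13.23, 13.17 and 13.24 in DHL6 DMSO against 13.18, 13.27 and 13.2. The 24 h groups overlapped in DHL6, and the differences were 0.05 ± 0.08 and 0.00 ± 0.07. RPL3, a large 60S protein needed early in assembly, was likewise not called by its chosen probe set, with differences from −0.01 to 0.09 in the 8 comparisons. A further set for RPL3, averaging 11.96, gave 0.12 to 0.22. In a fit over all probe sets it was higher in DHL4 at 24 h (0.22). The RPL3 sets averaging 12.53 and 12.48 gave 0 and 0.03 there and were not called.

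In all, 34 members were never called against DMSO by their chosen probe set: 14 of 23 in the 40S subunit, 19 of 39 in the 60S subunit and RPL3L. The 31 bright ones among them ran from −0.08 (RPS2) to 0.21 (RPL29) in DHL4 at 24 h, with a median of 0.09, and from −0.09 (RPL23A) to 0.17 (RPL5) in DHL6 at 48 h, with a median of 0.03. The standard error of a DHL4 24 h difference was 0.07 to 0.11 in the bright members, and the smallest called rise among all members there was 0.21. Further bright sets were called higher for RPS16, RPL29, RPL13A and RPL3 of the 34, in a fit over all probe sets. In DHL4 at 24 h those of RPS16 and RPL29 both gave 0.41, beside 0.14 and 0.21 for the chosen sets. A set of RPL13A was higher in DHL6 at every time (0.31 to 0.43). Other bright sets of RPL13A and RPL3, and those of the remaining never-called members, were not called. Of the 31 members higher at least once, 17 were higher in 1 of the 8 comparisons, 9 in 2 and 5 in 3, and none in more. In single comparisons 2.14% to 13% of all genes were higher. The shares of all genes never called, or higher at least once, over the 8 comparisons are not given here. Core members with the pyrimidine start were called higher in DHL4 at 24 h in 23 of 44 cases (median 0.22). Those with an entry that lacks it were called in 3 of 8 (median 0.04), against 13% of all genes. In DHL6 at 24 h the counts were 4 of 44 and 0 of 8 (medians 0.12 and 0.1), against 6.2% of all genes. At 48 h in DHL6 they were 9 of 44 and 2 of 8 (medians 0.12 and 0.11), against 8.39%. These counts are a description with no test, and a run at a start other than the annotated one would be missed.

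Other abundant messenger RNAs lay lower over the same times. Among the 175 other genes with a mean of at least 10, a set chosen after the data were seen, the median differences in DHL4 were −0.03, −0.01, −0.35 and −0.08 at 2, 6, 24 and 48 h, and 25 rose and 95 fell at 24 h. Those counts are 14.3% and 54.3% of the set, against 13% and 16.5% of all genes. In DHL6 the medians were −0.01, −0.05, −0.09 and −0.12. The members' own medians at the same points were 0.04, 0.06, 0.19 and 0.12 in DHL4 and 0.04, 0.05, 0.1 and 0.09 in DHL6.

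Several members had further probe sets of their own. Of 35 such further sets averaging at least 10, 27 to 31 had the sign of the chosen set in each of the 8 comparisons, and in DHL4 at 24 h 10 were higher and 0 lower in a fit over all probe sets (27 with the same sign). RPL22 had 5 probe sets, all higher in DHL4 at 24 h. The 3 bright ones gave 0.36, 0.40 and 0.35, and the 2 dimmer ones, averaging 8.27 and 8.97, gave 0.97 and 0.69. In DHL6 only the dimmer sets were called, at 0.34 and 0.67 at 24 h and 0.67 and 0.97 at 48 h, beside 0.14 and 0.17 for the chosen set. For RPL28 a set averaging 5.69 gave 0.64 in DHL4 at 24 h beside 0.35 for the chosen one. RPL10 and RPS14 turned sign with the probe set: restricted to probe sets without the _x_ or _s_ suffix, which average 5.89 or less for these genes, RPL10 stood at −0.13 and RPS14 at −0.18 in DHL4 at 24 h, neither called, and the RPL10 set was lower in DHL4 at 2 and 6 h and in DHL6 at 2 and 48 h. Whether dim sets follow the same transcripts was not tested.

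Of the 4 paralogues, RPS27L and RPL39L had calls that their parents did not share, and no difference between paralogue and parent was tested. RPS27L encodes a near-identical relative of RPS27 and is a known target of p53. In DHL4 it read 8.78 and 8.72 in DMSO, 8.86, 8.88 and 8.67 at 2 h, 9.14, 9.17 and 9.22 at 6 h, 8.64, 8.82 and 8.77 at 24 h, and 8.8, 8.72 and 8.45 at 48 h. In DHL6 it read 9.27, 9.37 and 9.33 in DMSO, 9.04, 9.09 and 9.22 at 2 h, 8.58, 8.54 and 8.5 at 6 h, 8.73, 8.67 and 8.71 at 24 h, and 8.42, 8.69 and 8.75 at 48 h. Thus the 6 h arrays were the highest of all in DHL4, while in DHL6 every R406 array lay below every DMSO array.

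Against DMSO, RPS27L rose by 0.43 ± 0.11 in DHL4 at 6 h (adjusted p = 0.00857; 0.0973 without DMSO replicate 2). In DHL6 it fell by 0.78 ± 0.10 at 6 h (adjusted p = 3.69e-06), by 0.62 at 24 h (5.76e-05) and by 0.70 at 48 h (9.09e-06). The responses differed between the lines by −1.21 ± 0.15 at 6 h (DHL6 minus DHL4, adjusted p = 4.45e-06), −0.62 ± 0.15 at 24 h (0.00391) and −0.61 ± 0.15 at 48 h (0.0149). Of all genes, 3.08%, 9.35% and 1.62% had a higher and 3.96%, 7% and 3.46% a lower response in DHL6 at those times. The 48 h difference had adjusted p = 0.0964 without DHL4 DMSO replicate 2 and 0.0527 without DHL4 48 h replicate 1. At 2 h no member differed in response (limma), beside 1.22% of all genes higher and 0.534% lower; at an unadjusted p under 0.05 there were 2, and the robust variance fit called 0. RPS27 itself read 12.51 and 12.49 in DHL4 DMSO and 12.79, 12.81 and 12.78 at 24 h, a rise of 0.29 ± 0.08 (adjusted p = 0.00724; 0.0554 after centring on the median gene and 0.0607 without DMSO replicate 2). In DHL6 it was not called, at 0.14 ± 0.07 at 24 h.

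RPL39L, an autosomal relative of the X-linked RPL39 best known from testis, gave the largest fall among the members. It was read by a dim probe set averaging 5.36. Its values in DHL4 were 5.98 and 5.88 in DMSO, 5.92, 5.96 and 5.42 at 2 h, 6.26, 6.22 and 5.86 at 6 h, 5.03, 4.9 and 4.98 at 24 h, and 5.36, 5.31 and 5.02 at 48 h. In DHL6 they were 5.23, 5.2 and 5.05 in DMSO and 5.17, 5.38 and 5.06 at 24 h. The DHL4 arrays of 24 and 48 h lay below all DMSO arrays of that line, at about the level that DHL6 showed with and without R406. The difference in DHL4 was −0.96 ± 0.15 at 24 h (adjusted p = 1.65e-05) and −0.70 ± 0.15 at 48 h (0.00409; 0.0696 without DMSO replicate 1), and in DHL6 at 24 h 0.04 ± 0.14 (0.918). The lines' responses at 24 h differed by 1.00 ± 0.21 (adjusted p = 0.00089), where 9.35% of all genes had a higher response in DHL6. RPL39 rose over the same interval in DHL4, from 12.7 and 12.75 to 13.02, 12.98 and 12.96 (0.27 ± 0.09, adjusted p = 0.0196; 0.124 after centring on the median gene, and 0.0561 to 0.139 without DMSO replicate 1 or 2 or 24 h replicate 1).

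The remaining paralogues were near the bottom of the scale. RPL10L, a retrocopy of RPL10 active in testis, read 3.36 and 3.81 in DHL4 DMSO and 3.96, 4.1 and 4.26 at 24 h (0.52 ± 0.17, adjusted p = 0.0174); after centring on the median gene its adjusted p was 0.0516, without DMSO replicate 1 it was 0.30 with adjusted p = 0.365, and without 24 h replicate 3 0.45 with 0.0735. RPL3L, the relative of RPL3 found in heart and skeletal muscle, stayed between 2.49 and 3.19 on all arrays and was never called.

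**Figure D3:**
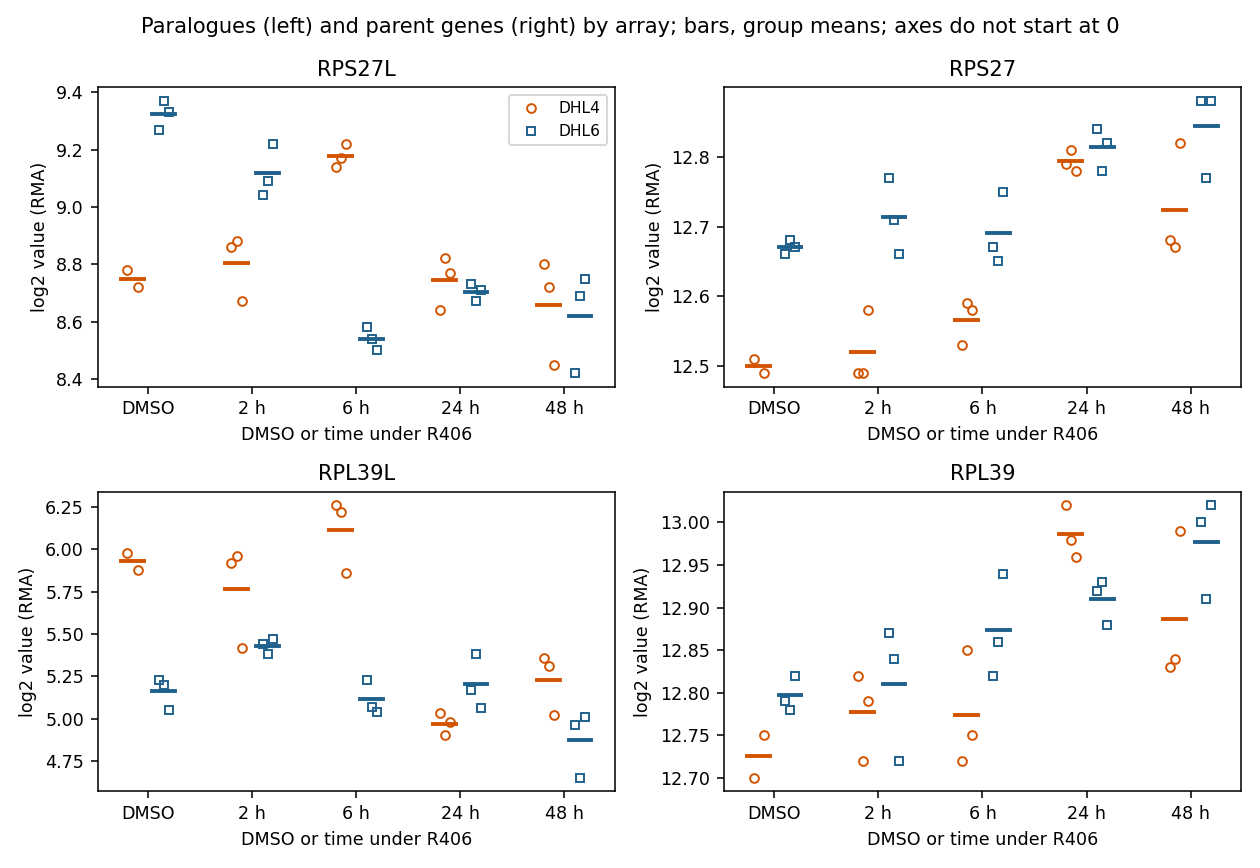
Log2 values on every array of the paralogues RPS27L and RPL39L (left) and their parent genes RPS27 and RPL39 (right), by DMSO or hours under R406, with circles for DHL4, squares for DHL6 and bars for group means. RPS27L peaks at 6 h in DHL4 (9.14 to 9.22) where it is at 8.5 to 8.58 in DHL6, and RPL39L drops in DHL4 at 24 h to 4.9 to 5.03.

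The members read by dim probe sets varied most between replicates. RPL27A gave the largest fitted rise of all members, 1.76 ± 0.49 in DHL6 at 48 h (adjusted p = 0.00932). Its arrays read 6.56, 6.78 and 7.09 in DMSO and 9.4, 7.69 and 8.63 at 48 h, and its DHL4 arrays ran from 6.16 to 8.64. Without 48 h replicate 1, an array of narrow spread that held the highest value, the rise was 1.35 with adjusted p = 0.0782. The highest values of RPL27A in DHL4, and of RPL37A in both lines (7 in DHL4 at 2 h and 7.11 in DHL6 at 6 h), were also read on arrays of narrow spread. RPL37A was never called, with standard errors of 0.55 to 0.62, and in DHL4 at 24 h its chosen set gave 0.70 where a further one, averaging 4.36, was lower by 1.23.

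Between successive times, the largest number of calls in DHL4 came between 6 and 24 h. From 2 to 6 h RPS27L alone was called, higher by 0.38 (adjusted p = 0.0128), against 8.37% of all genes higher and 3.3% lower, and the call was lost without 2 h replicate 3 (0.0945) or 6 h replicate 3 (0.0536). From 6 to 24 h 15 members rose in DHL4, led by RPL36 (0.44), RPL10L (0.43) and RPS9 (0.34), and RPL39L (−1.14) and RPS27L (−0.43) fell, against 8.75% of all genes higher and 13.5% lower. The RPL10L call, from a probe set averaging 3.7, was lost after centring on the median gene (adjusted p = 0.0999), in the robust variance fit (0.0806) and without 24 h replicate 2 or 3 or any 1 of the 6 h replicates (0.0607 to 0.163). The number called was 6 without 6 h replicate 1, 10 without 24 h replicate 1, and 17 in full. From 24 to 48 h 4 members fell (RPL36, RPL37, RPS9 and RPL11, by 0.34, 0.24, 0.22 and 0.19) and none rose, against 10.7% and 14.4% of all genes. Leaving out any one of 24 h replicates 1, 2 and 3 or 48 h replicates 1 and 2 reduced the 4 to 1 or 2. In DHL6 no member but RPS27L was called between successive times (limma): it fell by 0.58 from 2 to 6 h, against 1.88% of all genes higher and 2.57% lower. In the later steps 3.3% and 1.65% of all genes were higher and 2.53% and 5.06% lower. At an unadjusted p under 0.05 there were 5 members in DHL6 from 6 to 24 h and 5 from 24 to 48 h, and the robust variance fit called 10 and 6.

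Some members already differed between the lines under DMSO. Of the members, 11 (16.7%) were higher in DHL6 and 5 (7.58%) higher in DHL4, beside 10% and 10.5% of all genes. Without DHL4 DMSO replicate 1 the 16 became 9. RPL24, a 60S protein at the subunit bridge, read 11.28, 11.29 and 11.33 in DHL6 and 10.72 and 10.7 in DHL4 (0.59 ± 0.09, adjusted p = 1.43e-05). RPS10 (0.47; adjusted p = 0.213 as the mean of its probe sets) and RPS27L (0.57) were also higher in DHL6. RPL36 (−0.77), RPL35A (−0.63), RPL39L (−0.77) and RPS28 (−1.30) were higher in DHL4. For RPL36 and RPL35A this line difference was larger than any change of theirs under R406.

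Most of the listed factors that build ribosomes fell in DHL4 at 2, 6 and 24 h and in DHL6 at 24 and 48 h. This list, like the other gene lists, was chosen with earlier results of these data known, so its counts are a description with no test. Of 32 measured ribosome assembly factors, 23, 24, 31 and 4 fell in DHL4 at 2, 6, 24 and 48 h, and 7, 1, 18 and 28 fell in DHL6; none rose. Their background, the share of all genes that fell, was 6.81%, 6.36%, 16.5% and 3.8% in DHL4 and 3.16%, 5.12%, 8.17% and 14.9% in DHL6. Their median differences were −0.89, −1.06, −1.96 and −0.21 in DHL4 and −0.40, −0.06, −0.66 and −0.71 in DHL6. DDX21, a nucleolar RNA helicase, and NOP16 fell by 3.66 and 3.49 in DHL4 at 24 h, whereas the abundant nucleolar chaperone NPM1 fell by 0.65. The median of the cytosolic ribosomal proteins in DHL4 at 24 h was 0.19 on the same arrays.

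Mitochondrial ribosomal proteins are the structural proteins of the separate ribosome in mitochondria. Of 50 measured, 35 fell and none rose in DHL4 at 24 h (median −0.98), led by MRPL4 (−2.28), and in DHL6 at 48 h 22 fell and 1 rose (median −0.31). As shares, 70% and 44% fell there, against 16.5% and 14.9% of all genes. At 2, 6 and 48 h in DHL4 12%, 16% and 6% fell, against 6.81%, 6.36% and 3.8% of all genes. In DHL6 at 2, 6 and 24 h 4%, 4% and 20% fell, against 3.16%, 5.12% and 8.17%, so the early shares were near the background, and 1 gene rose at 6 h in each line.

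**Figure D4:**
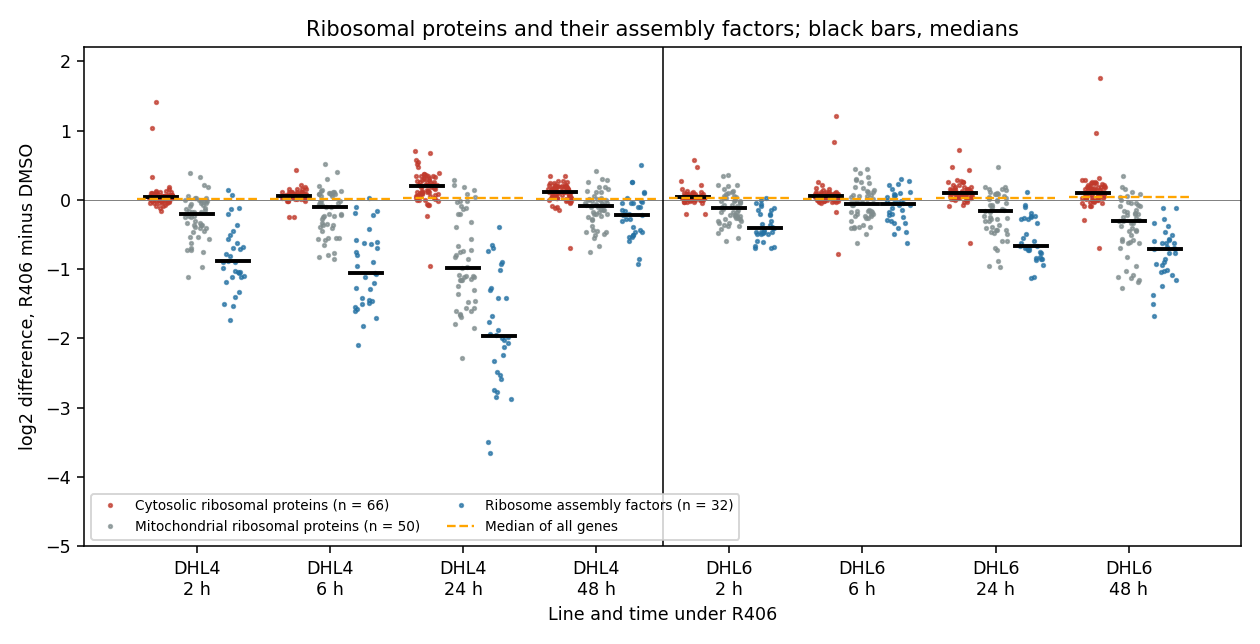
Log2 differences from DMSO of 66 cytosolic ribosomal proteins, 50 mitochondrial ribosomal proteins and 32 ribosome assembly factors in each line and time; points are genes, black bars list medians and dashed lines the median of all 12165 genes. In DHL4 at 24 h the medians are 0.19, −0.98 and −1.96.

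Other parts of the translation machinery were mixed. The translation factors and other messenger RNAs with a pyrimidine start, 18 genes, were mostly not called: in DHL4 at 24 h 4 rose and 2 fell (median 0.06), including EEF1D (0.64), EIF3H (0.48) and PABPC1 (−0.52), and in DHL6 at 24 h 3 rose (median 0.12). Of all genes, 13% rose and 16.5% fell in DHL4 and 6.2% rose in DHL6 at that time. Further parts of the cytosolic ribosome outside the symbol rule were FAU (0.15 and 0.00 at 24 h in DHL4 and DHL6), RPL36AL (0.09 and −0.20), neither called, and RPL26L1, the paralogue of RPL26. RPL26L1 fell by 0.53 in DHL4 at 24 h (adjusted p = 0.00315) and by 0.46 and 0.41 in DHL6 at 24 and 48 h (0.00834 and 0.0147).

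Among 5 measured chaperones that escort single ribosomal proteins to the ribosome, 4 fell and TSR2, the partner of RPS26, rose in DHL4 at 24 h. Of all genes, 16.5% fell and 13% rose there. HEATR3, which carries RPL5 and RPL11 into the nucleus, fell there by 1.57 and in DHL6 at 24 h by 0.75. Of 13 genes for transcription of ribosomal RNA by RNA polymerase I, 7 fell in DHL4 at 24 h and 7 in DHL6 at 48 h. The shares of all genes that fell were 16.5% and 14.9%. POLR1D, a subunit shared with another polymerase, rose in DHL6 at all 4 times, by 0.98 at 24 h.

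Of 12 listed regulators of ribosomal protein output, DEPTOR, EIF4EBP1, MYC and LARP1 differed in response between the lines at 24 h (4.19, 2.69, 2.34 and 1.07, DHL6 minus DHL4; adjusted p of 5.34e-14, 6.25e-11, 1.38e-13 and 1.25e-06). RPS6KB1 (−1.04 and −0.76) and RHEB (−0.77 and −0.39) fell in both DHL4 and DHL6 at 24 h, and TSC1 rose in both (1.02 and 0.51). MYC fell by 1.31, 1.33 and 1.34 in DHL4 at 2, 6 and 24 h and was not called at 48 h (0.19), whereas in DHL6 it rose by 0.96, 1.11, 1.00 and 0.74 at the 4 times. LARP1, which binds the pyrimidine start, fell by 0.69, 0.68 and 1.21 in DHL4 at 2, 6 and 24 h, and in DHL6 by 0.44 at 2 h and 0.30 at 48 h. DEPTOR, an inhibitor of mTOR, fell by 3.19 in DHL4 at 24 h and rose by 1.00 in DHL6. Of the 12 measured, 7 fell and 1 rose in DHL4 at 24 h, and 2 fell and 4 rose in DHL6. Of all genes, 16.5% fell and 13% rose in DHL4, and 8.17% fell and 6.2% rose in DHL6 at that time. Whether any of the 12 bears on the members was not tested.

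**Figure D5:**
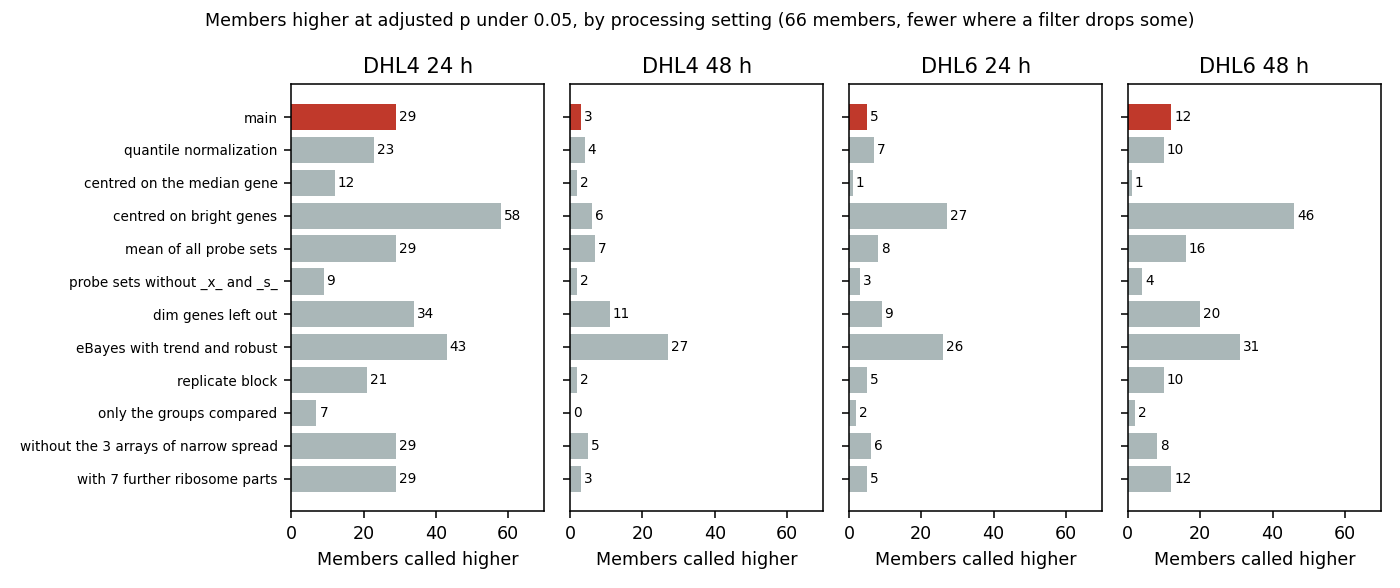
Number of members called higher at an adjusted p under 0.05 in the 4 late comparisons (panels) under each processing setting (bars; the reported fit in red). In DHL4 at 24 h the number runs from 7 (only the groups compared) to 58 (centred on bright genes), around 29 in the reported fit. The share of all genes called higher also moved there, to 32.9% when centred on bright genes against 13% in the reported fit.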

How the data were processed

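Total RNA of both lines was hybridised to Affymetrix HT_HG-U133A arrays, and the deposited values are log2 expression summarised with RMA, per the submitters' processing notes. The RMA version is not given in the sources used here, nor is it known if the arrays went through it as 1 batch. From these values, probe sets with a single gene symbol in the platform annotation (19724 of 22277, updated through Entrez identifiers) were kept, 568 with several symbols and 1923 with none were left out, and each gene was read by its brightest probe set (mean of the 29 arrays). limma 3.58.1 in R 4.3.3 fitted 1 model over the 10 groups (19 residual degrees of freedom, two-sided tests). Calls are at a Benjamini-Hochberg adjusted p under 0.05 over 12165 genes, and errors are model standard errors. The fit was checked on simulated data. Depth has no meaning for arrays; the number of arrays limits precision.

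Replicate numbers are shared between groups. Of 56 same-numbered pairs, 6 deviated together with a correlation over 0.1 (median −0.003), so numbers were not used as pairs. The members and gene lists were chosen with earlier results of these data known. The genes named were, per comparison, the 3 largest called rises and falls, the paralogues with their parents and a fixed set of well-studied members; for other lists at most 3 called genes. Other members are named in counts, as range ends or for their probe sets, and were picked after their values were seen. Promoter sequences are RefSeq's (GRCh38.p14). Alternatives were other scalings, probe set rules, filters, variance models, the replicate block and leaving out each array. Leaving out 3 arrays of narrow spread was added after the data were seen.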

Additional observations from a re-analysis of the deposited data

Results flagged for a closer look

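In 5 cases the test of the difference between the lines' responses to R406 (DHL6 minus DHL4, limma, adjusted over all genes) passed the threshold for a member. RPS27L differed by −1.21 at 6 h, −0.62 at 24 h and −0.61 at 48 h, falling in DHL6 on 3 of 3 arrays at each time, while in DHL4 it was higher than DMSO on 3 of 3 arrays at 6 h and overlapped DMSO at 24 and 48 h. RPL39L differed by 1 at 24 h, with 3 of 3 DHL4 arrays below DMSO and DHL6 arrays overlapping it. RPS9 differed by −0.41 at 24 h, with 3 of 3 arrays above DMSO in both lines.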

How the results depend on the processing

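Numbers here are members called. Quantile normalization gave 2 higher in DHL4 and 1 in DHL6 at 6 h, 6 and 2 differing in response at 24 and 48 h, 2 and 7 in the DHL4 steps from 2 to 6 h and 24 to 48 h, and 2 in DHL6 from 6 to 24 h. At 6 h 7.26% of all genes were then higher in DHL4 and 4.82% in DHL6. Centring on the median gene gave 12 higher in DHL4 at 24 h, 1 in DHL6 at 24 h, 1 higher and 2 lower in DHL6 at 48 h, and 5 and 1 in the last 2 DHL4 steps. Of all genes, 10.7% were then higher in DHL4 at 24 h, and 5.02% and 4.81% in DHL6 at 24 and 48 h. Centring on bright genes, which moved the median of all genes to 0.29 in DHL4 at 24 h and 0.22 in DHL6 at 48 h, gave 2, 58 and 6 higher in DHL4 at 6, 24 and 48 h, 2, 27 and 46 in DHL6, 7 in the 24 h response, and 53 and 47 in the last 2 DHL4 steps. At 6, 24 and 48 h 7.85%, 32.9% and 5.26% of all genes were then higher in DHL4, and 5.37%, 11.3% and 25.4% in DHL6. For the settings that follow, the share of all genes is not given here. The mean of all probe sets gave 2 lower in DHL4 at 24 h, 7 higher at 48 h, 1 and 8 higher in DHL6 at 6 and 24 h, 3 and 7 in the first and last DHL4 steps and 2 in DHL6 from 6 to 24 h. Probe sets without _x_ and _s_, which measured 25 members, gave 1 lower at 2 h in each line, 0 higher and 1 lower in DHL4 at 6 h, 9 higher and 3 lower at 24 h, 0 lower in DHL6 at 6 h, 3 higher and 0 lower at 24 h, and 4 higher and 2 lower at 48 h. They also gave 0 in the 6 h response, 0 and 10 in the first 2 DHL4 steps, 0, 2 and 2 in the DHL6 steps and 7 between the lines under DMSO. Leaving out dim genes gave 2 and 11 higher in DHL4 at 6 and 48 h, 1, 9 and 20 in DHL6 at 6, 24 and 48 h, 6 and 2 in the 24 and 48 h responses, 4, 31 and 10 in the DHL4 steps, and 3 and 1 in the last 2 DHL6 steps. The robust variance fit gave 5 and 27 higher in DHL4 at 6 and 48 h, 1, 5, 26 and 31 higher in DHL6 at the 4 times, 2 lower at 48 h, 13 and 3 in the 24 and 48 h responses, 8, 41 and 19 in the DHL4 steps, 10 and 6 in the last 2 DHL6 steps, and 30 under DMSO. Fitting only the groups compared gave 7 and 0 higher in DHL4 at 24 and 48 h, 2 and 2 in DHL6, 0 in the 48 h response, 0, 9 and 1 in the DHL4 steps and 0 in DHL6 from 2 to 6 h. Adding the further ribosome parts (3 of 7 measured) gave 2 lower in DHL4 at 24 h and 2 in DHL6 at 24 and at 48 h. Leaving out the 3 arrays of narrow spread, chosen after the data were seen, gave 5 higher in DHL4 at 48 h. The replicate block gave 2 members in DHL4 from 2 to 6 h, and 21 and 2 higher in DHL4 and 5 and 10 in DHL6 at 24 and 48 h. Apart from the fits on fewer probe sets, genes or samples, the cause was not tested.

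Leaving out 1 array at a time gave 0 to 1, 13 to 22 and 0 to 2 higher in DHL4 at 6, 24 and 48 h, 0 to 1 lower at 48 h, and 1 to 4 and 3 to 12 higher in DHL6 at 24 and 48 h. It gave 0 to 1 in the 48 h response, 0 to 2, 6 to 15 and 1 to 5 in the DHL4 steps, 0 to 2 in DHL6 from 24 to 48 h and 9 to 14 under DMSO. Of 2376 re-computed differences of named members, 2201 kept direction and side of the threshold, 116 dropped below it, 51 passed it and 8 turned sign. With probe sets lacking _x_ and _s_, RPL10 stood at −0.69 and −0.13 in DHL4 at 6 and 24 h and −0.59 and −0.48 in DHL6 at 2 and 48 h, and RPS14 at −0.18 in DHL4 at 24 h and −0.13 in DHL6 at 48 h. Centred on bright genes, RPL3 and RPS27L in DHL4 at 24 h each stood at 0.25. Precision is limited by the number of arrays, above all the 2 DMSO arrays of DHL4. Signal near background limits RPL10L, RPL3L, RPL37A, RPS28 and RPL39L.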
